A study of Homo sapiens with 18 samples.

Results

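The 6 genes described here are RUNX1, RUNX2 and RUNX3, the 3 DNA-binding subunits of the core binding factors, CBFB, the partner that all 3 need, and HMGA1 and HMGA2, the AT-hook proteins of the high mobility group A family. They were taken by symbol from the 57445 genes of a count table that covers 18 RNA sequencing libraries. All come from MiaPaCa-2, a cell line grown from a human pancreatic carcinoma. RUNX1 and HMGA1 were chosen by their levels in the leader libraries, which were seen to climb over the passages, so their values over those passages are given as a description, with no test. The 4 relatives were added by family, to see whether they share that course. Of the 6 genes, 4 passed the filter on low counts (RUNX1, RUNX2, CBFB and HMGA1), among 16187 genes tested in all. RUNX3 and HMGA2 did not pass and are given as counts.

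Every library is labelled as MiaPaCa-2 cells of WT genotype, and the groups differ in their history in the nerve. Parental cells were kept in culture and never injected. Laggers and leaders of passage 1 were collected after injection into the sciatic nerve. The labels do not define the names, which in studies of nerve invasion stand for cells that stayed behind and cells that advanced along the nerve. Leaders of passages 2, 3 and 4 were obtained by growing recovered leaders in culture and injecting them again. Each of the 6 groups holds 3 libraries. Leaders of passages 2 to 4 thus had earlier regrowth in culture, laggers exist for passage 1 only, and the labels do not say whether replicates are separate cultures or animals. The p-values therefore speak only of spread among these libraries, part or all of which may be technical.

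RUNX proteins bind DNA through their Runt domain and activate or repress genes with the help of CBFB, which binds no DNA itself but stabilises the complex. RUNX1 is best known as a regulator of blood stem cells, RUNX2 as the regulator of bone formation, and RUNX3 for its part in lymphocytes and sensory neurons. HMGA proteins bend AT-rich DNA and open chromatin for other factors. They are abundant in embryos, low in most adult tissues and high again in many carcinomas, and HMGA2 is the classic target that let-7 microRNAs repress.

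The regulatory sequence of the 3 members whose levels moved most is shown first. The lines give the 250 bases before a gene start listed by RefSeq, build GRCh38.p14, read 5′ to 3′ on the strand of the gene, and capitals mark the RUNX recognition letters TGTGGT or their reverse complement ACCACA.
RUNX1, chr21:34888700-34888949, minus strand: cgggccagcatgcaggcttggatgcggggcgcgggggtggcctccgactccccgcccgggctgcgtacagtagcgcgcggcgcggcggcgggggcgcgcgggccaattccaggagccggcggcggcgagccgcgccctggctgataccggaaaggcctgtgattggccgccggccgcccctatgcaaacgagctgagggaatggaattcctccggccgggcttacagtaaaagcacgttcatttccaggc
RUNX2, chr6:45328080-45328329, plus strand: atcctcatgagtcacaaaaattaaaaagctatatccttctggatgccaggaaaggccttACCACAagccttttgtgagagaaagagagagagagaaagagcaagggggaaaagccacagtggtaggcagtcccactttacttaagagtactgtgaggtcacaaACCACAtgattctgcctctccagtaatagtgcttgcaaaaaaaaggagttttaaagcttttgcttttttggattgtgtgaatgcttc
HMGA1, chr6:34236623-34236872, plus strand: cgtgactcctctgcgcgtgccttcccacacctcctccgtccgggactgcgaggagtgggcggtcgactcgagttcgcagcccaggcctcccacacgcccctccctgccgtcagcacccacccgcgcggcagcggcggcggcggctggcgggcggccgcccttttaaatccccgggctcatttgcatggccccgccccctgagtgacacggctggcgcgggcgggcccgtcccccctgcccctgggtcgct
In the full window of 300 bases, 250 before and 50 after the start, the motif search on both strands found 4 matches for this RUNX2 start, 2 of them in the printed stretch. The only listed window of RUNX1 held 0 matches, and no other start of RUNX1 was searched. A second, downstream start of RUNX2 and both listed starts of HMGA1 held 0 as well. The upstream start of RUNX3 held 2 and its downstream start 0. The counts therefore do not compare the genes start for start. Among 35116 RefSeq windows of the same length 13.1% held at least 1 match and 5 windows held at least 4. A match is a description of letters, and the counts per gene cannot tell which start was in use. CBFB and HMGA2 had no entry in that table.

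Levels are given in CPM, the read counts of a gene scaled to the same library total in every library after TMM correction. The file lists the members as RUNX1 (ENSG00000159216.13), RUNX2 (ENSG00000124813.16), RUNX3 (ENSG00000020633.14), CBFB (ENSG00000067955.9), HMGA1 (ENSG00000137309.15) and HMGA2 (ENSG00000149948.9). Gene totals ran from 15113462 to 39373248 counts. Mitochondrially encoded genes took 0.472% to 0.873% of gene counts in the parental line and 1.95% to 8.57% in injected groups, and multiply aligned reads made up 13.9% to 16.4% and 20.2% to 32.6% of all entries in the same 2 sets of libraries. The markers of the line itself were read as a check. KRT8, KRT18 and VIM averaged 2470, 2420 and 1830 CPM in the parental libraries, while CDH1, EPCAM and CDKN2A had no count there. In the injected groups KRT8 and KRT18 averaged 5840 to 9980 CPM, and CDH1 reached 8.68 CPM in passage 1 leaders. Of 7 listed markers 5 were tested. In all leaders against the parental line 4 were called higher, beside 20.1% of all genes. Along the leader passages 2 were called lower and 0 higher, beside 9.38% and 11.7% of all genes. Passage 3 leader replicate 2 stood apart, with 24.8% unaligned and 14.1% no-feature entries and 21020 CPM of red cell markers, nearly all HBB.

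**Figure D1:**
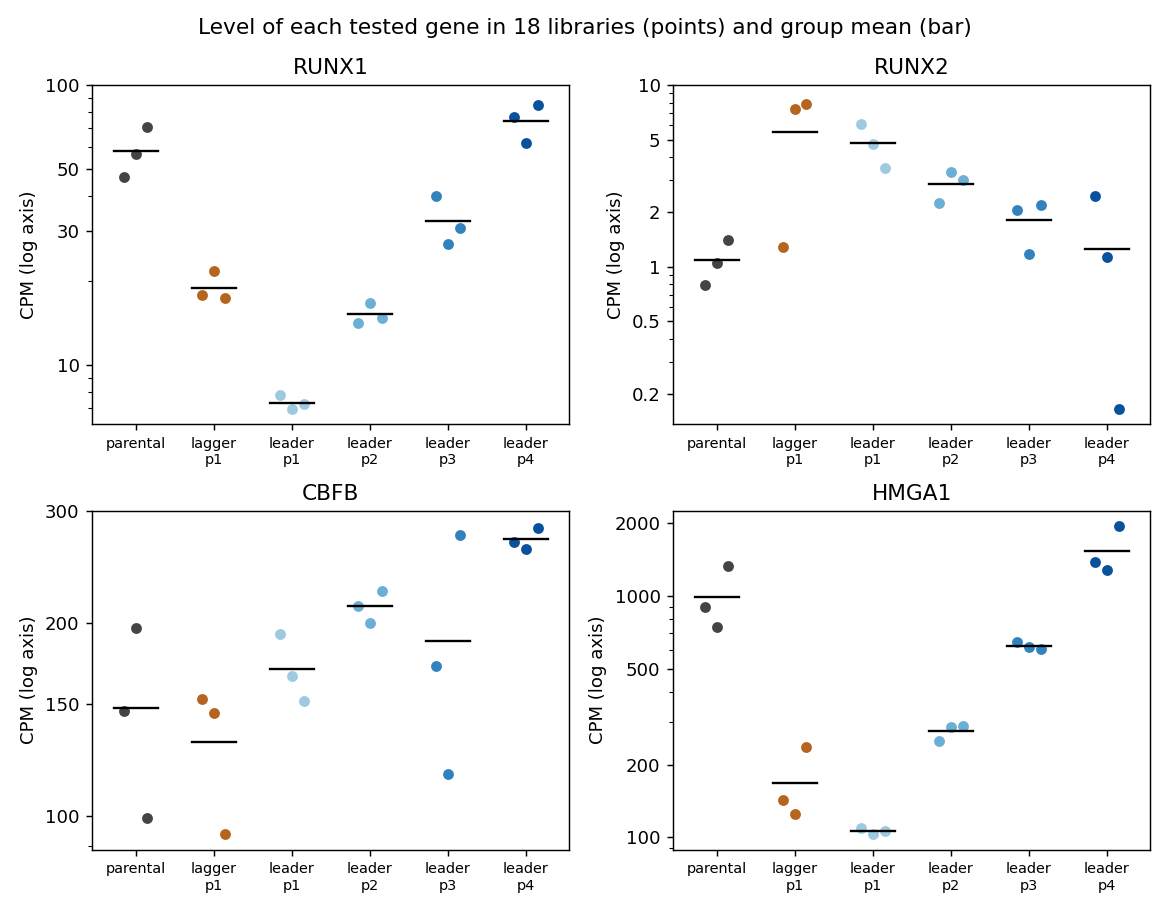
Level of RUNX1, RUNX2, CBFB and HMGA1 in CPM on a log axis, with a point for each of the 18 libraries and a bar at the mean of 3. RUNX1 and HMGA1 are lowest in passage 1 leaders, at 7.35 and 106 CPM, RUNX2 is highest in the passage 1 groups, and CBFB stays between 93.7 and 282 CPM.

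RUNX1 was low after a single passage through the nerve and back at the parental level by passage 4. The 3 parental libraries held 46.8, 56.5 and 70.5 CPM. Laggers held 17.7, 21.6 and 17.3 CPM, and passage 1 leaders 7.80, 6.98 and 7.27 CPM, so that neither group reached the lowest parental library, which 19.9% of all tested genes also show in laggers and 27.5% in passage 1 leaders. Leaders of passage 2 held 14.1, 16.7 and 14.7 CPM, those of passage 3 held 40.1, 27.04 and 30.9 CPM, and those of passage 4 held 76.9, 62.2 and 84.7 CPM. Each leader passage lay wholly above the one before it, as held for 0.494% of all genes. Leaving out passage 3 leader replicate 2, the lowest of its passage at 27.04 CPM, could not have changed this. The order of the groups was passage 1 leaders, passage 2 leaders, laggers, passage 3 leaders, the parental line and passage 4 leaders. Within it only the last 2 overlapped, and passage 2 leaders and laggers were narrowly apart (16.7 against 17.3 CPM). The share of all genes with this order was not counted, and the leader climb in it chose RUNX1. In percent of the parental mean the leader means were 12.7, 26.2, 56.4 and 129.

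RUNX1 fell in laggers against the parental line, a comparison of libraries that did not choose it (58.0 ± 11.9 to 18.9 ± 2.38 CPM, mean ± SD, n = 3; log2 fold change -1.62 ± 0.21 SE, edgeR adjusted p = 2.66e-05). Over the 4 leader passages together it stood at a log2 fold change of -1.34 ± 0.15 against the parental line, a description, since these libraries chose the gene. The slope over the passages, which chose the gene, was a log2 gain of 1.11 ± 0.07 per passage, and 1.38% of tested genes had a higher slope. Passage 1 leaders stood against laggers at a log2 fold change of -1.36 ± 0.21, with no overlap, beside 9.84% of all genes with passage 1 leaders wholly below laggers. That comparison uses leader libraries that chose the gene and is not tested here. RUNX1 is expressed in blood cells, so markers of leukocytes were read beside it. Of 11 such markers PTPRC, CD3D and CD3E had no count in parental or lagger libraries, and PTPRC averaged 2.23, 3.09, 2.51 and 0.675 CPM in leaders of passages 1 to 4. The summed level of the list was 0.996 to 4.92 CPM in the parental line, 4.16 to 9.48 in laggers, 4.94 to 6.43, 7.83 to 14.96 and 8.24 to 158 in leaders of passages 1 to 3, and 263 to 676 in passage 4. Nearly all of the last came from CD79A, a B cell receptor subunit, at 440 CPM, with AIF1, LYZ, CD3D, CD3E and NKG7 at 0. The part of this signal in the RUNX1 values was not tested.

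HMGA1 followed the same course on a larger scale. Parental libraries held 899, 744 and 1335 CPM. Laggers held 143, 125 and 236 CPM and passage 1 leaders 109, 103 and 106 CPM. The passage 1 leaders were the lowest and the most even of all groups, with a coefficient of variation of 3.06%. Leaders of passage 2 held 252, 286 and 289 CPM, those of passage 3 held 644, 617 and 601 CPM, and those of passage 4 held 1383, 1284 and 1948 CPM. Again each passage lay wholly above the one before, which held for 0.494% of all genes and is the course that chose HMGA1. At passage 4 replicate 2, at 1284 CPM, lay below the highest parental library while the other 2 lay above all 3 parental ones. The leader means were 10.7%, 27.8%, 62.5% and 155% of the parental mean.

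HMGA1 fell in laggers against the parental line (992 ± 307 to 168 ± 59.4 CPM, n = 3 each; log2 fold change -2.56 ± 0.25 SE, edgeR adjusted p = 2.44e-06). Against the same parental libraries the leaders of all passages together stood at a log2 fold change of -1.28 ± 0.17, again as a description. The slope that chose the gene was a log2 gain of 1.27 ± 0.08 per passage, with 0.982% of tested genes above it. Passage 1 leader libraries lay wholly below the laggers, as 9.84% of all genes did. The log2 fold change was -0.66 ± 0.24, is not tested here, and was -0.34 without lagger replicate 3. HMGA1 has processed pseudogenes that are near copies of its transcript, and 8 of them are in the file. They held 0.133% to 0.524% of the summed counts of gene and pseudogenes in each group, and with them added the group means were 994 CPM in the parental line, 107 CPM in passage 1 leaders and 1541 CPM in passage 4 leaders. Reads with more than one alignment are not in these counts.

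**Figure D2:**
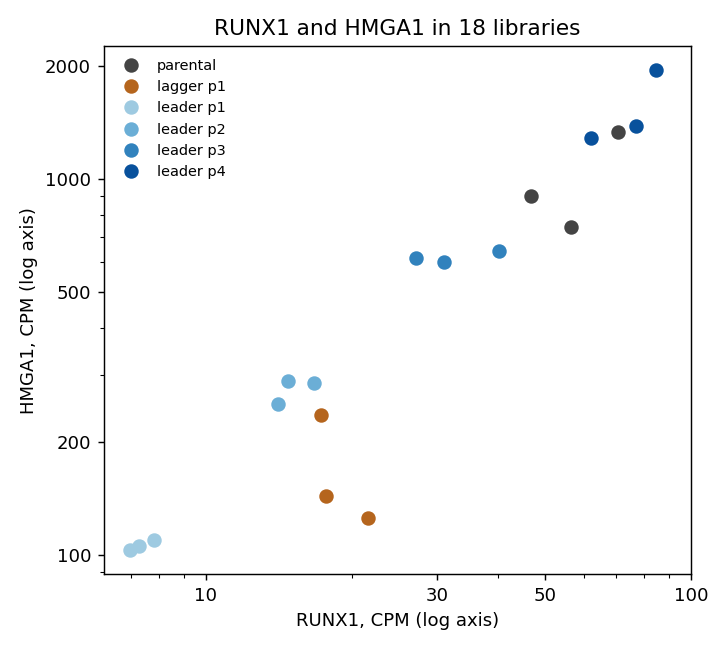
RUNX1 against HMGA1 in CPM, both on log axes, with a point for each of the 18 libraries coloured by group. Passage 1 leaders sit at the lower left, later passages further up, and passage 4 leaders beside or above the parental libraries at the upper right.

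The step sizes of both genes can be set side by side as ratios of group means. From passage 1 to passage 2 RUNX1 went up by a ratio of 2.065 and HMGA1 by 2.602. From passage 2 to passage 3 the ratios were 2.155 and 2.25, and from passage 3 to passage 4 they were 2.28 and 2.48. Passage 4 leaders stood above passage 1 leaders by ratios of 10.2 for RUNX1 and 14.5 for HMGA1. These are descriptions of the values on which both genes were chosen. The share of mitochondrially encoded counts went the other way over the same libraries, with means of 6.80%, 3.68%, 3.07% and 2.62% in leaders of passages 1 to 4, and its part in the course was not tested.

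RUNX2, the bone regulator, had low levels throughout and its means went in the opposite direction. Parental libraries held 0.796, 1.05 and 1.41 CPM, from 32, 41 and 38 counts. Laggers held 1.28, 7.33 and 7.84 CPM, so that replicate 1 lay within the parental range and the other 2 far above it. Passage 1 leaders held 6.11, 4.75 and 3.49 CPM and passage 2 leaders 2.24, 3.33 and 2.99 CPM, all above the parental line, as were 29.7% and 23.9% of all genes at those passages. Passage 3 leaders held 2.05, 1.17 and 2.18 CPM. Passage 4 leaders held 2.46, 1.12 and 0.165 CPM, the last from 5 counts, and overlapped the parental line. From low to high the group means ran from the parental line over leaders of passages 4, 3, 2 and 1 to the laggers. In this order the parental line and leaders of passages 4 and 3 overlapped, as did passage 4 with passage 2 and laggers with every other group. Leaders of passages 1, 2 and 3 were apart from each other, but neighbouring passages only narrowly. Passages 1 and 2 came as close as 3.49 and 3.33 CPM, and passages 2 and 3 as close as 2.24 and 2.18 CPM. The share of all genes with such gaps was not counted.

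RUNX2 rose in laggers against the parental line by a log2 fold change of 2.34 ± 0.71 (SE), at an edgeR adjusted p of 0.0156. It also rose in passage 1 leaders (2.14 ± 0.70, edgeR adjusted p = 0.0202). It then declined over the leader passages, by a slope of -0.65 ± 0.22 per passage (edgeR adjusted p = 0.0467). These calls lay near the threshold, and each was lost in some of the fits that left out a single library. The lagger call was lost without parental replicate 1 (adjusted p = 0.0609) and without lagger replicate 2 (0.0521), over a range of 0.00292 to 0.0609 in all 12 alternatives tried. The passage 1 leader call was lost without parental replicate 1 or 2 or leader replicate 1 (0.0758, 0.0544 and 0.0598, over a range of 0.00368 to 0.0758). The slope was not called in 12 of 18 alternatives (range 0.0139 to 0.116), kept its sign in all 18, and was -0.94 without passage 4 leader replicate 1 and -0.63 (edgeR adjusted p = 0.0594) without passage 3 leader replicate 2. Passages 4 and 1 differed by -1.95 ± 0.70 (edgeR adjusted p = 0.0602), and by -2.90 without passage 4 leader replicate 1 (edgeR adjusted p = 0.0232, over a range of 0.021 to 0.162). The leaders of all passages together did not differ from the parental line by the test (1.12, 95% interval -0.11 to 2.35, edgeR adjusted p = 0.135), and without passage 4 leader replicate 3 the adjusted p was 0.0363 (range 0.0363 to 0.338).

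Markers of fibroblasts were read beside RUNX2, which mesenchymal cells express. Of 10 markers 3 averaged over 1 CPM in the parental line, 6 in laggers and 7 in passage 1 leaders. The summed level was 122 to 255 CPM in the parental line, 1274 to 2155 CPM in laggers and 1009 to 2314, 828 to 1519, 552 to 1341 and 235 to 496 CPM in leaders of passages 1 to 4. COL1A2 and COL3A1, 2 fibrillar collagen genes, made up most of it in the injected groups, while COL1A1 was the largest part in the parental line. COL1A1 fell where the sum rose, from a mean of 160 CPM in the parental line to 48.6 CPM in laggers. It averaged 17.9, 23, 15.7 and 6.61 CPM in leaders of passages 1 to 4. DCN and LUM averaged 0.187 and 0.118 CPM in the parental line and 9.4 and 8.39 CPM in laggers. PDGFRA went from 0.112 CPM in the parental line to 63.7 CPM in passage 2 leaders. POSTN averaged 3.48 CPM in the parental line, 0.747 CPM in laggers and 49.4 CPM in passage 2 leaders. THY1, FAP and PDGFRB stayed under 1 CPM in every group. Of 8 tested markers 5 were called higher and 0 lower in laggers, beside 21.5% and 17.8% of all genes. The part of these transcripts in the RUNX2 values was not tested. In bulk libraries fewer cells of a kind and less RNA per cell cannot be told apart.

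RUNX3, the remaining family member, had 0 counts in 17 libraries and 2 counts in passage 1 leader replicate 1. At this depth 3 counts correspond to 0.0746 to 0.21 CPM, so a level above that range was not detected. Neither of the other RUNX genes showed the course of RUNX1.

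CBFB, the common partner, was well expressed in all groups. Parental libraries held 146, 197 and 99.4 CPM, a wide spread, and laggers 153, 145 and 93.7 CPM. Leaders held 192, 166 and 151 CPM at passage 1, 213, 201 and 225 CPM at passage 2, 172, 116 and 275 CPM at passage 3, and 268, 262 and 282 CPM at passage 4. The passage 2 and passage 4 libraries all lay above the highest parental one, as 23.9% and 22.6% of all genes did, and those of the other groups overlapped it. CBFB did not differ in laggers by the test (log2 fold change -0.18, 95% interval -0.77 to 0.42, edgeR adjusted p = 0.647). It rose in passage 4 leaders against the parental line (0.88 ± 0.28 SE, edgeR adjusted p = 0.0296). That call was lost when parental replicate 1 or 3 (0.0979 and 0.137) or passage 4 leader replicate 1, 2 or 3 was left out (0.0661, 0.0638 and 0.0705; range over 12 alternatives 0.014 to 0.137), and the change was 0.66 to 1.13 over these fits. Without passage 3 leader replicate 2, the library at 116 CPM that stood apart, the passage 3 leaders were at 0.63 against the parental line, beside 0.35 with it (edgeR adjusted p = 0.124 and 0.401). The slope over leader passages was 0.18 (95% interval -0.004 to 0.37, edgeR adjusted p = 0.155), and 21.2% of tested genes had a higher slope. Leaders of all passages together were at 0.49 (95% interval 0.004 to 0.97, edgeR adjusted p = 0.0976), with 0.76 and an adjusted p of 0.0324 without parental replicate 2, 0.27 without parental replicate 3, and 0.0377 for the adjusted p without passage 3 leader replicate 2 (range 0.0324 to 0.462).

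HMGA2 had 0 counts in 15 libraries, among them all parental, lagger and passage 1 and 2 leader libraries. It had 1 count in passage 3 leader replicate 3, and 1 and 9 counts in passage 4 leader replicates 1 and 2. The 9 counts, 0.375 CPM, are above the 0.125 CPM that 3 counts give in that library. An antisense gene overlaps 384 of the 15403 exon bases of HMGA2 in GENCODE 29, and without strand, reads from that stretch cannot be assigned to either gene. Whether they were counted for HMGA2 or left out as ambiguous is not known. The course of HMGA1 was therefore not seen in HMGA2, which stayed near or below detection.

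In laggers against the parental line 3 of the 4 tested members were called, RUNX1 and HMGA1 lower and RUNX2 higher, while 39.3% of all tested genes were called there, 21.5% higher and 17.8% lower. For leaders of all passages together neither RUNX2 nor CBFB was called, beside 42.0% of all genes, 20.1% higher and 21.9% lower. Calls against the parental line are thus common in these data. Of RUNX2 and CBFB, the members with a test in the single passages, RUNX2 was called in passage 1 leaders (45.7% of all genes were, 23.2% higher and 22.4% lower), neither in passages 2 and 3, and CBFB in passage 4. The shares of all genes called at these passages were 29.9% (15.1% higher, 14.8% lower), 24.6% (13.8% higher, 10.8% lower) and 27.7% (14.8% higher, 12.9% lower). In passage 1 leaders against laggers, where 0.0618% of genes were called (0.0185% higher, 0.0432% lower), RUNX2 and CBFB were not (adjusted p = 0.90 and 0.499), nor were they between passages 4 and 1 (20.0% of all genes, 10.8% higher and 9.17% lower). For the slope RUNX2 was called lower and CBFB was not, beside 21.1% of all genes in either direction, 11.7% higher and 9.38% lower. Of all genes 24.8% and 18.1% lay wholly below the parental libraries at passages 2 and 3, where RUNX1 and HMGA1 did too, and 21.0% at passage 4, where no tested member did. Above them lay 22.9% of all genes in laggers and 20.0% in passage 3 leaders, with no member among them.

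**Figure D3:**
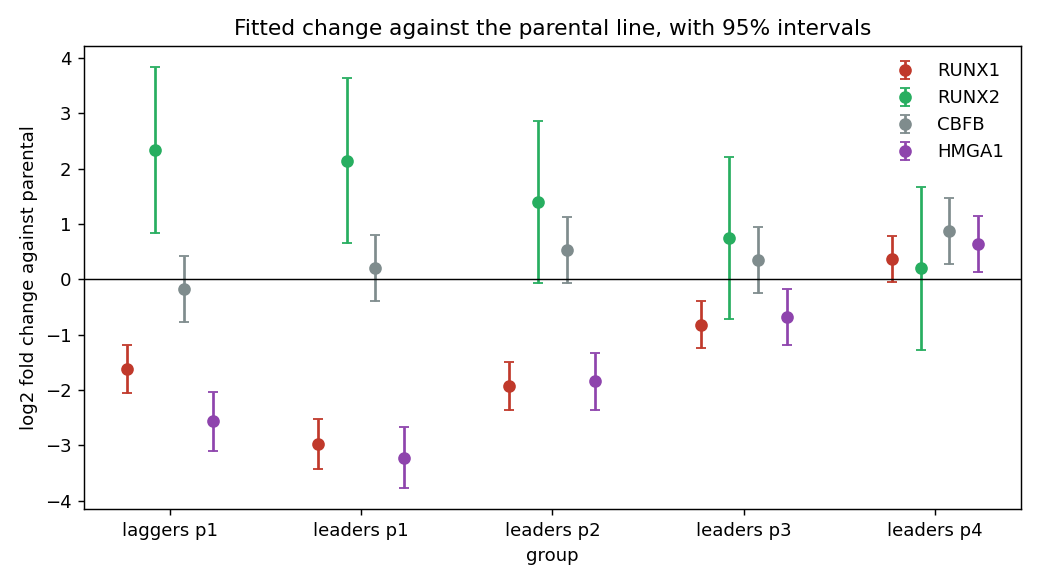
Fitted log2 fold change of RUNX1, RUNX2, CBFB and HMGA1 against the parental line in laggers and in leaders of passages 1 to 4, with 95% intervals, all against the same 3 parental libraries. RUNX1 and HMGA1 move from -2.98 and -3.23 at passage 1 to 0.36 and 0.63 at passage 4, and RUNX2 from 2.14 to 0.19.

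The balance within the RUNX family was set out per length, as CPM per kilobase of annotated exon, since levels of different genes compare only so. In the parental line RUNX1 stood at 3.72 ± 0.77 and RUNX2 at 0.132 ± 0.037 CPM per kb, so that RUNX1 made up 96.6 ± 0.26% of their sum. In passage 1 leaders they stood at 0.472 ± 0.027 and 0.584 ± 0.16 CPM per kb, and the RUNX1 share was 45.4 ± 6.24%. It was 67.5 ± 18.1% in laggers, ranging from 53.7% to 88.0%, and 73.8%, 90.6% and 96.9% in leaders of passages 2, 3 and 4. With coding length in place of exon length the passage 1 share was 69.1%, so which of the pair is more abundant there depends on the length used. CBFB exceeded the sum of RUNX1 and RUNX2 per kb by a ratio of 9.74 ± 4.05 in the parental line, 39.2 ± 1.87 in passage 1 leaders, 39.4 ± 5.78, 19.8 ± 8.51 and 13.4 ± 1.67 in those of passages 2 to 4, and 18.3 ± 9.16 in laggers. HMGA1 had the highest mean per length in every group, at 427 ± 132 CPM per kb in the parental line and 661 ± 154 in passage 4 leaders. In passage 1 leaders its lead was within the spread, at 45.6 ± 1.4 beside 41.1 ± 5.03 CPM per kb for CBFB.

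**Figure D4:**
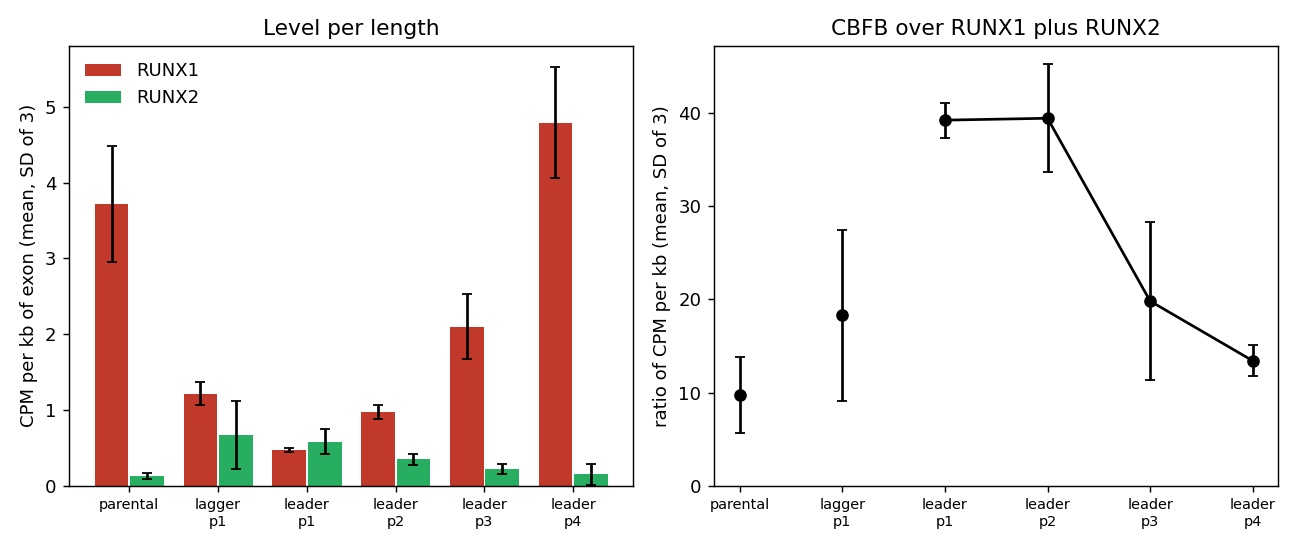
Left, mean level of RUNX1 and RUNX2 in CPM per kb of exon by group, with the SD of 3 libraries. Right, ratio of CBFB to the sum of RUNX1 and RUNX2 per kb with the SD, and a line through the leader passages only. The RUNX2 bar matches or passes the RUNX1 bar only in passage 1 leaders, where the ratio on the right is near its highest, at 39.2.

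The genes with the pattern most like RUNX1 were sought by Pearson's correlation of log2 CPM over all 18 libraries, which share their 6 groups. They were LIX1L (r = 0.963), the cofilin phosphatase SSH1 (0.951), the RNA-binding protein gene IGF2BP2 (0.931), the glycolytic enzyme PKM (0.931) and the centrosomal gene CEP250 (0.922). HMGA1 ranked number 3 in likeness among the 16186 other genes, at 0.944. Both genes were chosen for their climb in 12 of these libraries, so their likeness to each other largely repeats that choice. CBFB stood at 0.217 and RUNX2 at -0.692. For HMGA1 the most alike were the actin cross-linker ACTN4 (0.983), AHNAK2 (0.975), PKM (0.974), HJURP, a chaperone of the centromeric histone (0.971), and SSH1 (0.965), and RUNX1 was number 17.

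A stricter description, chosen after the values were seen, asked for genes whose libraries fell without overlap from the parental line to laggers to passage 1 leaders and then stood higher without overlap at each of the later passages. It held for 9 of 16187 genes, 0.0556%: RUNX1, HMGA1, IGF2BP2, PKM, SSH1, LIX1L, PYGB, RASSF4 and E2F1. The climb over the 4 leader passages alone held for 80 genes, 0.494%, and the reverse decline for 24 genes, 0.148%. Of the 9 genes IGF2BP2 had the deepest low, at 10.2% of the parental mean in passage 1 leaders (4.24 ± 0.12 CPM against 41.4 ± 4.45), followed by HMGA1 and RUNX1. PYGB, a glycogen phosphorylase, and RASSF4 went furthest above the parental line, to 251% and 270% in passage 4 leaders. E2F1, the cell cycle regulator, returned to 93.8%.

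**Figure D5:**
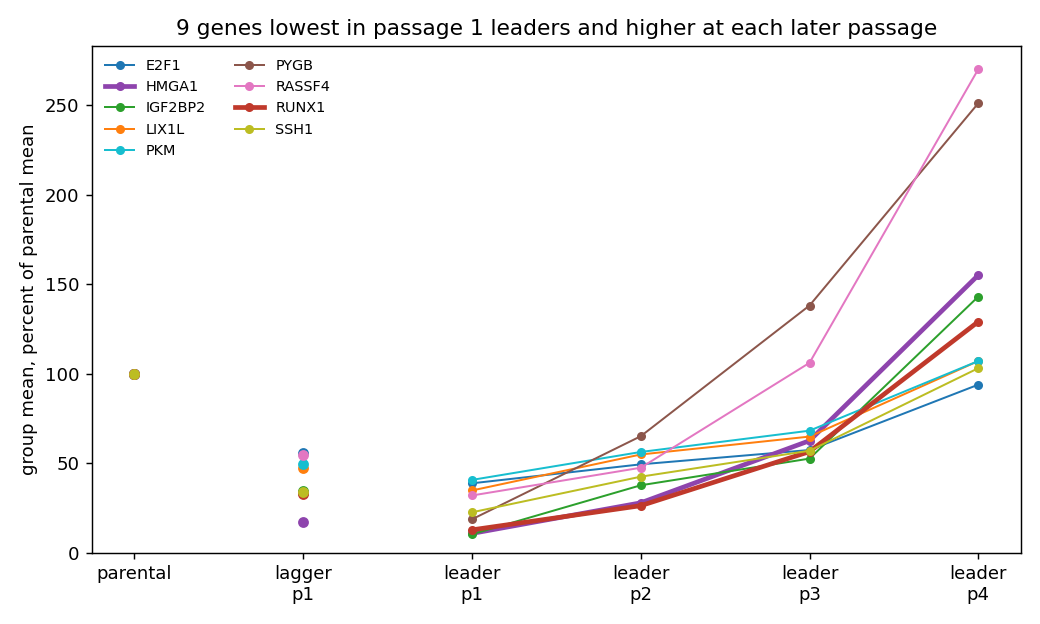
Group means of the 9 genes with the strict pattern in percent of their parental mean, with lines through the leader passages and thick lines for RUNX1 and HMGA1. At passage 1 the leaders lie between 10.2% and 40.6%, and at passage 4 between 93.8% and 270%.

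Genes that work with RUNX proteins were read as a list of 27 partners and corepressors, 23 of them tested. In laggers 3 were higher and 7 lower (median log2 fold change -0.21, beside 0.09 over all tested genes, of which 21.5% were called higher and 17.8% lower). In leaders of all passages 6 were higher and 9 lower (median -0.20 beside 0.03 over all genes, with 20.1% called higher and 21.9% lower). TLE2, a Groucho corepressor that RUNX proteins recruit, rose in laggers from 127 ± 40.8 to 810 ± 324 CPM (log2 fold change 2.67 ± 0.35, edgeR adjusted p = 3.96e-05). In leaders of passages 1 to 4 TLE2 averaged 390, 508, 368 and 103 CPM (slope -0.62 ± 0.11, edgeR adjusted p = 0.000994). Its largest step down was the last. SMAD3, a transducer of TGF-beta that binds RUNX proteins, fell in laggers by 2.46 ± 0.34 and in all leaders by 1.68 ± 0.23. CBFA2T3, an ETO family corepressor, fell from 44.3 ± 16.6 CPM to between 4.71 and 7.45 CPM in every injected group (all leaders: -2.95 ± 0.27, edgeR adjusted p = 7.97e-07). Its relative RUNX1T1, the partner of RUNX1 in a leukaemia fusion, had 0 counts in the parental line and 2.03 to 19.2 CPM in laggers, at least 342-fold higher against 3 counts over the parental group. GATA2, a blood transcription factor, was lower in all leaders (-3.08 ± 0.36, edgeR adjusted p = 8.67e-06).

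Along the leader passages 11 of the 23 partners rose and 1 fell (median slope 0.25 beside -0.01 over all tested genes, with 11.7% called higher and 9.38% lower). The count that rose was 7, 6 and 7 without passage 1 leader replicate 1, passage 1 leader replicate 3 and passage 4 leader replicate 3. WWTR1, the coactivator TAZ, rose from 112.5 ± 32.3 CPM at passage 1 to 584 ± 63.2 CPM at passage 4 (slope 0.79 ± 0.07, edgeR adjusted p = 3.33e-06), beside 300.5 ± 10.7 CPM in the parental line. HIPK2, a kinase of RUNX complexes, rose by 0.76 ± 0.11 per passage and the deacetylase HDAC1 by 0.29 ± 0.05.

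Of 19 textbook targets of RUNX proteins 6 passed the filter on low counts. In laggers 1 of the 6 was called higher and 0 lower, beside 21.5% and 17.8% of all genes. In all leaders 2 were called higher and 1 lower, beside 20.1% and 21.9% of all genes. CDKN1A, the cell cycle inhibitor p21, rose in laggers from 12.8 ± 2.71 to 155 ± 90.7 CPM (3.60 ± 0.37, edgeR adjusted p = 3.7e-06) and in all leaders (2.81 ± 0.32, edgeR adjusted p = 6.99e-06). COL1A1, a collagen gene that RUNX2 drives in bone, fell in all leaders (-3.47 ± 0.77, edgeR adjusted p = 0.00197). VEGFA, the angiogenic factor, rose along the passages from 53.4 ± 6.86 to 388 ± 188 CPM (0.98 ± 0.10 per passage, edgeR adjusted p = 1.58e-05). The shares of all genes called in these comparisons, given above, are the background for this list and those that follow. In all 3 of the 6 rose along the passages, with a median slope of 0.33, and 1 without passage 4 leader replicate 3.

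Around HMGA proteins 17 genes of the let-7 axis were listed, 15 of them tested. In laggers 1 was higher and 5 lower (median -0.37 beside 0.09 over all genes, with 21.5% called higher and 17.8% lower), and 0 and 3 in a fit of the compared groups only. In all leaders 2 were higher and 6 lower (median -0.41). The 2 higher in all leaders became 0 without parental replicate 3 or passage 4 leader replicate 1, and 1 without parental replicate 1 or 2, passage 1 leader replicate 1, passage 2 leader replicate 1 or 3, or passage 3 leader replicate 3. IGF2BP3, an RNA-binding protein of embryos and tumours, fell in all leaders from 189.6 CPM to between 47.7 and 63.1 CPM (-1.80 ± 0.16, edgeR adjusted p = 5.37e-07) and did not come back. Its relative IGF2BP2 did, with a slope of 1.19 ± 0.13 per passage (edgeR adjusted p = 2.94e-05). AGO2, the slicer of microRNA complexes, fell in all leaders by 1.36 ± 0.15. Along the passages 2 of 15 rose, beside 11.7% of all genes, with a median slope of 0.03, and 1 without passage 1 leader replicate 2, passage 1 leader replicate 3 or passage 4 leader replicate 3.

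Of 8 genes reported downstream of HMGA proteins 7 were tested. In laggers 4 fell, beside 17.8% of all genes, and 1 rose, with a median of -0.84, and in a fit of the compared groups only 1 fell. In all leaders 3 fell and 0 rose, with 1 falling without parental replicate 3 and 1 rising without passage 1 leader replicate 2 or passage 2 leader replicate 1. Along the passages 3 rose and 1 fell, with a median slope of 0.19. PLAU, the urokinase, rose from 109 ± 83.3 to 847 ± 417 CPM (1.03 ± 0.21 per passage, edgeR adjusted p = 0.00333). SNAI1, a repressor of epithelial genes, rose in laggers (1.53 ± 0.34, edgeR adjusted p = 0.00228) and fell along the passages from 29.5 to 6.25 CPM (-0.77 ± 0.11, edgeR adjusted p = 0.000243). E2F1 rose along the passages by 0.40 ± 0.08 (edgeR adjusted p = 0.0019).

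The other high mobility group genes, of the HMGB and HMGN families, were read as relatives of HMGA1 that share its name and not its AT hooks. Of 9, 7 were tested. In laggers 2 rose (median 0.52), near the 21.5% of all genes called higher, with 1 in a fit of the compared groups only, 1 without parental replicate 3 or lagger replicate 2 and 4 without lagger replicate 3, and in all leaders 3 rose (median 0.51). HMGN3, a nucleosome-binding protein, rose in laggers from 9.33 ± 3.99 to 84.3 ± 38.1 CPM (3.17 ± 0.42, edgeR adjusted p = 4.1e-05) and stood at 69.7 to 129.5 CPM in leaders. Along the passages 1 of 7 rose, near the 11.7% of all genes, and it was HMGB2, a DNA-bending protein of dividing cells (0.25 ± 0.07, edgeR adjusted p = 0.0124), and it was not called without passage 1 leader replicate 2 or passage 4 leader replicate 3 (0.0754 and 0.0658, over a range of 0.0043 to 0.0754).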

How the data were processed

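The deposited file holds raw read counts per gene, made by the authors. Tools listed in the submitters' processing notes are HTSeq 0.5.3, STAR 2.5.0a, cutadapt 1.6 and DESeq 1.22.1, with no order stated. Per the labels the cDNA kit was SMART-Seq v4, a kind without strand information. The genome build was not given in the sources used here. The 5 entries that name no gene, 27.6% to 60.6% of all entries, were left out of library sizes. Members were found by symbol.

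Tests were edgeR 4.0.16 quasi-likelihood F tests (R 4.3.3) on 1 fit of all 18 libraries with TMM scaling and the edgeR expression filter (16187 genes tested, 41258 not), adjusted by the Benjamini-Hochberg method over all tested genes, with calls at an adjusted p under 0.05. The 9 comparisons share control libraries. The slope is a linear contrast over 4 passages, per passage. Intervals cover 95%, and floors are 3 counts, for counting error only. Exon and coding lengths came from GENCODE 29, whose versions of these genes are later than those in the deposited file. Members, gene lists and tests were chosen with earlier results of these data known. From each list up to 4 genes of smallest adjusted p in laggers, all leaders and the slope could be named, and for RUNX1 and HMGA1 the 5 most correlated named genes. No pair of replicates agreed within sampling noise (chi-square of counts divided by its degrees of freedom 19.6 to 219).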

Additional observations from a re-analysis of the deposited data

Results flagged for a closer look

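RUNX1 stood on different sides of the parental mean at the 2 ends of the leader series: all 3 passage 1 libraries lay below it (-3.02 to -2.86 on the log2 scale) and all 3 passage 4 libraries above it (0.12 to 0.57), a difference between the passages of 3.32. The passage 4 libraries overlapped the parental ones, and the 95% interval of their fitted log2 fold change ran from -0.06 to 0.79, so a level above the parental line was not shown. HMGA1 stood at -3.23 to -3.14 and 0.42 to 1.02, a difference of 3.83, and its passage 4 libraries overlapped the parental ones too. Neither difference was tested, since both genes were chosen on it.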

How the results depend on the processing

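Member results were recomputed with RLE size factors, with no filter, with DESeq2 1.42.0, with a replicate block, with only the compared groups, without mitochondrially encoded genes (added after seeing the data) and without each library. RUNX1 and HMGA1 kept their calls in laggers in each of the 12 fits that bear on it. Over all 36 member results and the 6 settings other than leaving out a library, 4 calls were gained and 1 lost, and 211 values did not change. Where a call was made, this means the same direction and the same side of the threshold. RUNX1 and HMGA1 had no call in single leader passages, between passages or in the slope. There it means the same direction and a shift under the SD among replicates. RUNX2 was called between passages 4 and 1 with no filter (adjusted p = 0.0336, range 0.021 to 0.162) and with DESeq2 (0.021), and in passage 2 leaders with only the compared groups (0.0249, range 0.0249 to 0.295). CBFB was called between passages 4 and 1 with only the compared groups (0.0165, range 0.0165 to 0.27). With only the compared groups fewer list genes were called in laggers: of the let-7 axis 0 higher and 3 lower, of HMGA effectors 1 lower (INSR 0.0659 and E2F1 0.0901 in adjusted p), and of other high mobility group genes 1 higher, and in all leaders 1 HMGA effector was called higher, as with DESeq2. With no filter 2 RUNX targets and 1 other high mobility group gene were called higher in laggers and 3 RUNX targets lower in all leaders, and with DESeq2 1 other high mobility group gene had a falling slope.

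Leaving out a library turned the sign of values that had not passed the test: RUNX2 in passage 4 leaders against the parental line (-0.76 to 0.76) and in passage 1 leaders against laggers (-0.58 to 0.16), CBFB in laggers (-0.40 to 0.091) and in leaders of passage 1 (-0.020 to 0.46) and 3 (-0.059 to 0.63), and TGFBR1, a listed gene, in laggers (-0.98 to 0.068).

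Same-numbered replicates did not deviate together: 8 of 45 pairs correlated over 0.1, and 5 of 18 libraries were closest to their own number. With the replicate block the slope of RUNX2 had an adjusted p of 0.0695 (range 0.0139 to 0.116), and 3 genes were called between passage 1 leaders and laggers. That count, 10 as reported, was 257 with no filter, 369 with DESeq2 and 0 with only the compared groups by edgeR (1197 at an unadjusted p under 0.05), and 0 to 52 without single libraries. Genes called in laggers against the parental line were 3355 with only the compared groups. Without single libraries the counts were 3167 to 4414 for passage 2 leaders (fewest without parental replicate 3, and 3188 without passage 2 leader replicate 3), 2491 to 3761 for passage 3 (fewest without passage 3 leader replicate 1, and 2589 without parental replicate 3), 1512 to 2821 between passages 4 and 1 (fewest without passage 4 leader replicate 3, and 2113 without passage 1 leader replicate 3) and 1740 to 3255 for the slope (fewest without passage 4 leader replicate 3). With coding length the RUNX1 share of RUNX1 plus RUNX2 was 98.7% in the parental line and 69.1%, 88.4% and 96.3% in leaders of passages 1, 2 and 3. RUNX2 rests on 5 to 166 counts per library, which limits its precision.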
